A study of Mus musculus with 21 samples.

Results

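The response to compound 2 was set beside the response to doxycycline removal in mouse small-intestinal organoids, gene by gene. Of the 21 arrays of the series, 14 entered these 2 comparisons: 3 of compound 2, 4 of doxycycline removal and 7 of vehicle with doxycycline. Each treated array has a vehicle array with the same letter in its label, A to C for compound 2 and D to G for removal, so no vehicle array serves both comparisons. The compound 2 cultures were kept in doxycycline and given 2 µM of the compound for 24 h, and the removal cultures were without doxycycline for 24 h. The vehicle cultures (vehicles A to C, then vehicles D to G) were kept in doxycycline with vehicle for the same 24 h. All cultures, vehicles included, carried a Tet-O transgene for an N-terminally truncated, myc-tagged human ΔN89-beta-catenin and the M2-rtTA activator, which is expressed from the ROSA26 locus. All were established from crypts of such mice and grown in a medium that holds epidermal growth factor, Noggin and R-spondin 1. All cultures carried the transgene, so the effects of losing doxycycline and of losing the transgene's product cannot be told apart after removal. The labels do not say which letters are separate cultures or mice, so the p-values below measure the spread between these samples, which may be technical.

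Beta-catenin carries the Wnt signal into the nucleus, where it joins TCF/LEF factors to switch on genes such as Axin2 and Rnf43, which in turn dampen the pathway. In the intestine this signal maintains the crypt stem cells and drives their division. A beta-catenin that lacks its N-terminus escapes degradation, so that the pathway stays on while the transgene is made. Compound 2 belongs, per the series' design text, to a trisubstituted pyridine series that inhibits CDK8 and CDK19, the paralogous kinases that join the Mediator complex and act on transcription downstream of beta-catenin among other factors. The comparison asks how far inhibition of these kinases and shutting off the transgene move the same genes. Transcripts of Cdk8, Cdk19 and Ctnnb1 (beta-catenin) did not pass the test in either comparison. With compound 2 and after removal, Cdk8 differed from vehicle by 0.25 and 0.06, Cdk19 by -0.32 and -0.14, and Ctnnb1 by 0.11 and 0.05 on the log2 scale. With the letter as a block, Cdk8 and Cdk19 passed with compound 2 (adjusted p 0.0178 and 0.0129). Other probes of Cdk8 gave smaller changes with compound 2, at 0.001 and 0.17.

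Values are log2 ratios of the sample (Cy3) over a common mouse reference RNA (Cy5), and a change is the mean difference from the vehicle arrays of the same letters, ± SE. A gene is said to have risen or fallen, or to be among those a treatment changed, where its adjusted p was under 0.05 in limma over 21387 genes. The words changed by, before a value, give its size only, whether or not it passed. On these 14 arrays, 49.5% to 51.5% of spots stood well above background for letters A to C and 44.8% to 46.3% for letters D to G. The number of arrays limits the precision. The arrays of compound 2 with their vehicles and those of removal with theirs were scanned on different days with different scanners, so a difference between the 2 sets of cultures and one between their scans cannot be told apart. The median of the epithelial markers stood above the reference RNA in every group. The median level of 18 epithelial markers was 3.75 to 3.93 with compound 2, 4.28 to 4.36 after removal, 3.64 to 3.97 in vehicles A to C and 4.14 to 4.35 in vehicles D to G. The median of 10 measured fibroblast markers lay between -5.54 and -5.31 in these groups. Other marker lists lay higher. In vehicles A to C and vehicles D to G the median was -2.29 and -2.12 for 15 leukocyte markers. For 8 endothelial markers it was 0.26 and -0.29. These levels depend on the reference RNA, so they do not give the share of a cell type. In such bulk samples, fewer cells of a type and less RNA per cell cannot be told apart.

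Promoters of 4 genes are shown as examples of windows that hold a match to a motif of the Wnt or the oxidative stress pathway. They are RefSeq windows of 300 bases (build GRCm38.p6, 250 before the start to 50 after), read 5′ to 3′ along the gene's strand. The capitals mark a match to a TCF motif (CTTTGAT) or to the antioxidant response element (TGACNNNGC), searched on both strands. Lect2 and Tnfrsf19 fell in both comparisons, Sp5 fell after removal and did not pass with compound 2, and Mfsd7b (now Flvcr1) rose in both. On the manufacturer's log ratios Lect2 passed in neither comparison, and Sp5 missed after removal (adjusted p 0.908). The windows lie at chr13:56548489-56548788 (minus strand), chr14:61037938-61038237 (minus strand), chr2:70474673-70474972 (plus strand) and chr1:191026141-191026440 (minus strand).
Lect2: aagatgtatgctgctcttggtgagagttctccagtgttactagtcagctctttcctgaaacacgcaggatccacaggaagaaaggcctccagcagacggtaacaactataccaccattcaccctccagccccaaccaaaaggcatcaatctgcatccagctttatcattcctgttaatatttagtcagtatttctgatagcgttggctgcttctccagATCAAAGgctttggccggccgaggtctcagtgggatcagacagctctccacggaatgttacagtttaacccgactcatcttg
Tnfrsf19: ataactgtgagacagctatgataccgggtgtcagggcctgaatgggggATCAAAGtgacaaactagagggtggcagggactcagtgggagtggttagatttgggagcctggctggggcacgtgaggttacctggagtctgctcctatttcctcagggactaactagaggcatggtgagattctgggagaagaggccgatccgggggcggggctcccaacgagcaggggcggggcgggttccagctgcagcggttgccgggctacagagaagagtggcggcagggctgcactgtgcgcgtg
Sp5: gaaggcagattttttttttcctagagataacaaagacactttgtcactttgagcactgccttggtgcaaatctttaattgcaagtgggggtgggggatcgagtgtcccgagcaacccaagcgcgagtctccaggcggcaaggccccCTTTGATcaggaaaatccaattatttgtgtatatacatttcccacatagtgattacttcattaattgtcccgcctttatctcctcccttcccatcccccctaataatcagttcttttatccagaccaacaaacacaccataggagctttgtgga
Mfsd7b: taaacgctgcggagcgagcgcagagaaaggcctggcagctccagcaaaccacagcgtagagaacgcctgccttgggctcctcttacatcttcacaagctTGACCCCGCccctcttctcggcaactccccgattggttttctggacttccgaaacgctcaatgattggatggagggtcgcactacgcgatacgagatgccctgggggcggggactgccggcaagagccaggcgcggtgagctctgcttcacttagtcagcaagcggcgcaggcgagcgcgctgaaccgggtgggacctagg
Of 32851 RefSeq promoter windows of this length, 3.73% held the TCF motif and 12.4% the antioxidant motif. Of the 6 genes named below as lower in both, 5 had 7 windows between them, and 2 genes held the TCF motif and none the antioxidant motif. Tnfrsf19 has another window, at chr14:61046806-61047105, which held neither motif. Of the 6 named as higher in both, 5 had a window, of which 1 held the antioxidant motif and none the TCF motif. The antioxidant motif also stood in 2 of 4 matched genes that rose with compound 2 and fell after removal (Tle3 and Pcna) and in 1 of 5 of the reverse class. A match is a run of letters, and factor binding was not measured.

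Compound 2 changed 1138 genes (5.32% of those tested), of which 709 were higher (3.32%) and 429 lower (2.01%). Removal changed 4427 (20.7%), 1557 of them higher (7.28%) and 2870 lower (13.4%). Both changed 371 genes (1.73%), which is 32.6% of those changed by compound 2 and 8.38% of those changed by removal. Among the shared genes 182 rose in both (0.851%), 136 fell in both (0.636%), 36 rose with compound 2 and fell after removal (0.168%) and 17 did the reverse (0.0795%). With the letter as a block the comparisons passed 3708 and 8359 genes, and 1846 in both: 700 higher in both, 812 lower in both and 334 opposite. All 182 and 136 concordant and 36 and 17 opposite genes of the analysis without the block were in the same class with it. The split of calls depended on the scale of the values: 62.3% of compound 2 calls and 35.2% of removal calls were higher, against 48.8% and 47.1% on the manufacturer's log ratio scale, 51.6% and 46.3% on Cy3 alone and 52.3% and 46.1% on the submitters' values. Of the opposite genes 67.9% were higher with compound 2, against 52.8%, 49.1% and 47.4% on those scales. Without vehicle F, which stood apart from vehicles D, E and G, 1575 genes passed with compound 2 and 7384 after removal. In that fit 338 rose in both, 324 fell in both and 118 were opposite. Removal F stays in it. Without every array of letter F the same numbers were 2303, 6827, 427, 513 and 172. Of the 1138 genes changed by compound 2, 72.8% had the same sign after removal, against 58.7% of all genes. Their median change was 0.38 with compound 2 and 0.05 after removal. The 290 genes that fell at least 2-fold after removal had a median of -0.09 with compound 2 and -1.29 after removal. The 89 genes that rose at least 2-fold with compound 2 had a median of 1.23 with it and 0.25 after removal. Each of these gene groups was picked by its own comparison, so its size there is given by the choice.

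**Figure D1:**
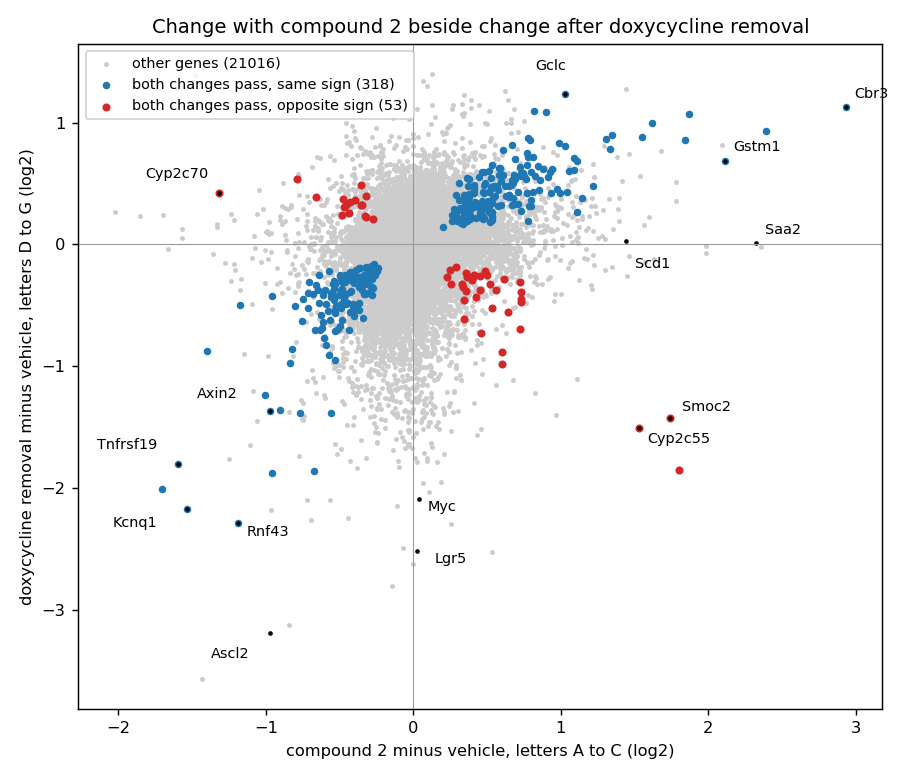
Change of each of 21387 genes with compound 2 (x axis, mean of 3 letters) and after doxycycline removal (y axis, mean of 4 letters), both log2 against vehicle of the same letters. The marked points are the 318 genes that passed in both with the same sign and the 53 with opposite signs; Rnf43 and Kcnq1 lie low in both, Cbr3 high in both, and Cyp2c55 and Smoc2 at the lower right.

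The 6 genes named as lower in both comparisons were Rnf43, Kcnq1, Lect2, Tgfbi, Tnfrsf19 and Axin2. Rnf43, a membrane ubiquitin ligase that removes Wnt receptors, lay at 1.61, 2.27 and 1.29 with compound 2 (letters A, B, C), against 2.82, 3.27 and 2.65 in vehicles A to C. After removal it lay at 1.25, 1.32, 0.96 and 1.23 (letters D, E, F, G), against 3.71, 3.53, 3.04 and 3.63 in vehicles D to G. The groups did not overlap in either set. The probe lies at chr11:87548958-87549017 in the array's mm9 annotation, and that of Kcnq1 at chr7:150612887-150612946. The change of Rnf43 was -1.19 ± 0.26 with compound 2 (adjusted p 0.0116) and -2.29 ± 0.23 after removal (adjusted p 1.22e-05). The difference of the changes, compound 2 minus removal, was 1.10 ± 0.35 and missed the threshold (adjusted p 0.0788), but passed with the letter as a block (adjusted p 0.000206).

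Kcnq1, the pore subunit of an epithelial potassium channel, fell by 1.54 with compound 2 and by 2.17 after removal. It lay at 3.48, 4.21 and 3.03 with compound 2, against 5.02, 5.29 and 5.02 in vehicles A to C. After removal it lay at 3.96, 4.02, 3.38 and 3.49, against 6.05, 6.08, 5.27 and 6.11 in vehicles D to G. The treated arrays were below every vehicle of their set, and another probe of the gene gave -1.40 and -2.42. The difference of the changes was 0.63 ± 0.40 (adjusted p 0.392, and 0.0347 with the block). Lect2, a secreted protein known as a beta-catenin target in mouse liver, fell by 1.70 ± 0.36 with compound 2 and by 2.00 ± 0.31 after removal. Its 3 changes with compound 2 were uneven, at -2.20, -0.72 and -2.18 in letters A, B and C. Tgfbi, an extracellular matrix protein, changed by -1.01 ± 0.28 and -1.24 ± 0.24, from vehicle levels of 4.34, 4.99 and 4.22 (letters A to C) and 2.86, 2.90, 3.32 and 2.94 (letters D to G). With the manufacturer's log ratios Lect2 passed in neither comparison, at -1.31 and -0.59, and Tgfbi missed with compound 2 (adjusted p 0.0804).

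Tnfrsf19 and Axin2 also fell in both. Tnfrsf19, a receptor found on crypt stem cells, lay at -1.55, -1.15 and -1.51 with compound 2, against 0.20, 0.23 and 0.14 in vehicles A to C, a change of -1.59 ± 0.23. After removal it was not well above background on any array, and it was at least 3.55-fold lower there than in vehicles D to G (adjusted p 2.96e-05). In such a bound each dim array enters at its own signal or, where that is higher, at the array's lowest signal well above background. Axin2, the scaffold of the complex that degrades beta-catenin, changed by -0.97 ± 0.25 with compound 2 (adjusted p 0.0288), where 1 of 3 arrays was well above background. After removal none of 4 was, and the level was at least 2.38-fold lower than in vehicles D to G (adjusted p 0.00055). On the submitters' values the call of Axin2 with compound 2 was lost (-2.80, adjusted p 0.171). For both genes a dimmer probe moved less: -0.43 and -0.13 for Tnfrsf19, and -0.07 and -0.47 for Axin2, with compound 2 and after removal. For these 2 genes, Lect2 and Tgfbi the difference of the changes did not pass, with or without the block. Its 95% intervals were -0.43 to 0.84 for Tnfrsf19, -0.30 to 1.09 for Axin2, -0.70 to 1.30 for Lect2 and -0.55 to 1.01 for Tgfbi. For Tnfrsf19 and Axin2 they rest on removal signals not well above background, so they do not limit the difference from above. Over the 136 genes lower in both the median change was -0.47 with compound 2 and -0.39 after removal, and the compound 2 change was the smaller in 52. The weakest change among them was -0.24 with compound 2 and -0.16 after removal. They had to pass both tests, so these sizes are partly given by the choice.

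**Figure D2:**
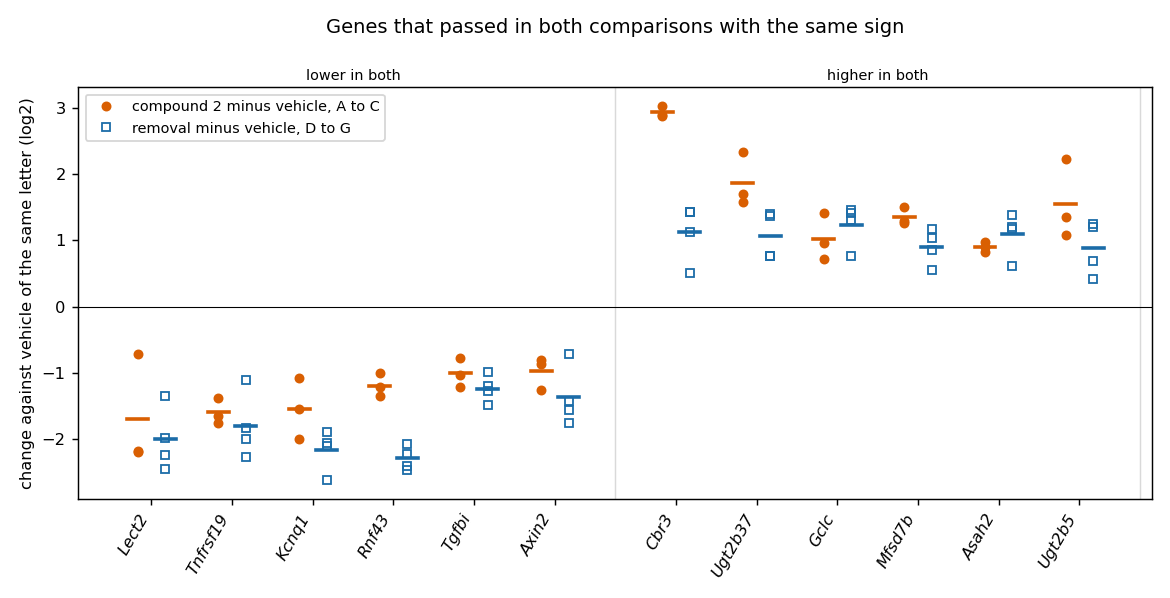
Change in each letter of the genes named as lower in both (left) and higher in both (right); circles are compound 2 minus vehicle (A, B, C), open squares doxycycline removal minus vehicle (D, E, F, G), bars the means, in log2. The genes were chosen to lie on 1 side of 0 in all letters, and Cbr3 stands about 1.81 further up with compound 2 than after removal.

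The 6 genes named as higher in both comparisons were Cbr3, Gclc, Mfsd7b, Asah2, Ugt2b37 and Ugt2b5. Cbr3, a carbonyl reductase, lay at 1.00, 0.08 and 0.72 with compound 2, against -1.89, -2.95 and -2.16 in vehicles A to C. After removal it lay at 1.80, 2.00, 1.78 and 1.13, against 0.37, 0.57, 1.27 and 0.00 in vehicles D to G. The probe lies at chr16:93691120-93691179 (mm9). The compound 2 arrays lay above their vehicles, by 2.93 ± 0.34 on average, and the removal arrays overlapped vehicle F. The change after removal was 1.12 ± 0.29, and the difference of 1.81 ± 0.45 passed (adjusted p 0.0298). Vehicles A to C started lower, at -2.34 ± 0.55 (SD, n = 3), than vehicles D to G at 0.55 ± 0.53 (SD, n = 4), and the part of that start in the larger change was not tested.

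Gclc, the catalytic subunit of the enzyme that limits glutathione synthesis, lay at 1.71, 1.67 and 2.11 with compound 2, against 0.75, 0.95 and 0.70 in vehicles A to C. After removal it lay at 2.67, 2.77, 2.64 and 2.35, against 1.20, 1.36, 1.88 and 1.04 in vehicles D to G. No treated array overlapped a vehicle of its set. Its changes were 1.03 ± 0.19 and 1.23 ± 0.17, with a difference of -0.21 (95% interval -0.75 to 0.33). Mfsd7b, a membrane transporter of heme and choline, changed by 1.35 ± 0.29 and 0.90 ± 0.25. Asah2, the neutral ceramidase of the brush border, changed by 0.90 ± 0.23 and 1.09 ± 0.20, and missed with compound 2 on the manufacturer's log ratios (adjusted p 0.0844). Ugt2b37 and Ugt2b5, enzymes that couple glucuronic acid to foreign compounds and steroids, changed by 1.87 and 1.07 and by 1.55 and 0.88 with compound 2 and after removal. On the manufacturer's log ratios neither passed in either comparison, and Ugt2b5 turned to -0.14 and -0.56 (-0.12 and -0.55 on the submitters' values). Probes of such close relatives may share transcripts. Over the 182 genes higher in both, the median change was 0.53 with compound 2 and 0.42 after removal, and the compound 2 change was the smaller in 35. The weakest change among them was 0.20 with compound 2 and 0.14 after removal, so here too the choice partly gives the sizes.

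Compound 2 and removal changed 53 genes in opposite directions. Each also passed in the test of the difference, which follows from choosing passing changes of opposite sign and adds no separate evidence. Cyp2c55, a cytochrome P450 of the gut, lay at 4.75, 4.27 and 4.46 with compound 2, against 2.85, 3.17 and 2.88 in vehicles A to C. After removal it lay at 1.67, 1.64, 0.96 and 1.02, against 2.90, 2.97, 2.54 and 2.90 in vehicles D to G. The probe lies at chr19:39116674-39116733 (mm9). The vehicles of both sets lay close to each other, and the treated arrays lay on opposite sides of them. The changes were 1.53 ± 0.24 and -1.51 ± 0.20, and the difference was 3.03 ± 0.31 (adjusted p 0.000113). Smoc2, a secreted matrix protein enriched in crypt stem cells, lay at 2.71, 3.24 and 2.37 with compound 2, against 0.95, 1.03 and 1.14 in vehicles A to C. After removal it lay at -0.24, -0.20, -1.24 and -0.74, against 1.39, 1.55, -0.87 and 1.20 in vehicles D to G, so vehicle F overlapped the removal arrays. Its difference of the changes was 3.16 ± 0.63 (adjusted p 0.00934), while its change with compound 2 missed the threshold on each of the other scales (adjusted p 0.0523 to 0.0658).

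Tle3, Stk39, Pcna and Mcm6 also rose with compound 2 and fell after removal. Tle3, a corepressor that binds TCF factors, changed by 0.72 and -0.70 with compound 2 and after removal, and Stk39, a kinase that acts on ion cotransporters, by 0.60 and -0.88. Pcna, the sliding clamp of DNA polymerases, lay at -0.23, 0.04 and -0.04 with compound 2, against -0.62, -0.78 and -0.65 in vehicles A to C. After removal it lay at -1.26, -1.23, -1.33 and -1.39, against -0.15, -0.04, -0.85 and -0.26 in vehicles D to G. Its groups did not overlap in either set, and its changes were 0.60 ± 0.15 and -0.98 ± 0.13. Mcm6, a subunit of the replicative helicase singled out after its values were seen, changed by 1.80 ± 0.41 and -1.85 ± 0.36. Its letter F changed by 0.04 after removal, unlike letters D, E and G at -2.40, -2.57 and -2.47.

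In the reverse direction, Cyp2c70, a P450 that makes muricholic bile acids in mouse liver, lay at 0.93, 1.10 and 1.44 with compound 2, against 2.74, 2.27 and 2.41 in vehicles A to C. After removal it lay at 5.28, 5.10, 4.75 and 5.23, against 4.62, 4.69, 4.46 and 4.88 in vehicles D to G, where the groups overlapped. The changes were -1.32 ± 0.17 and 0.43 ± 0.15 (adjusted p 0.0488 after removal). Its level differed more between the vehicle sets than by either treatment. Lama5, a basement membrane laminin, changed by -0.79 and 0.54, Hace1, a ubiquitin ligase, by -0.66 and 0.39, Zfp217, a zinc finger protein, by -0.48 and 0.37 (another probe gave -0.19 and 0.18), and Rasa2, a brake on Ras, by -0.40 and 0.36. On at least 1 of the other scales Pcna, Lama5, Hace1 and Rasa2 missed the threshold with compound 2, and Cyp2c70 and Hace1 after removal.

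**Figure D3:**
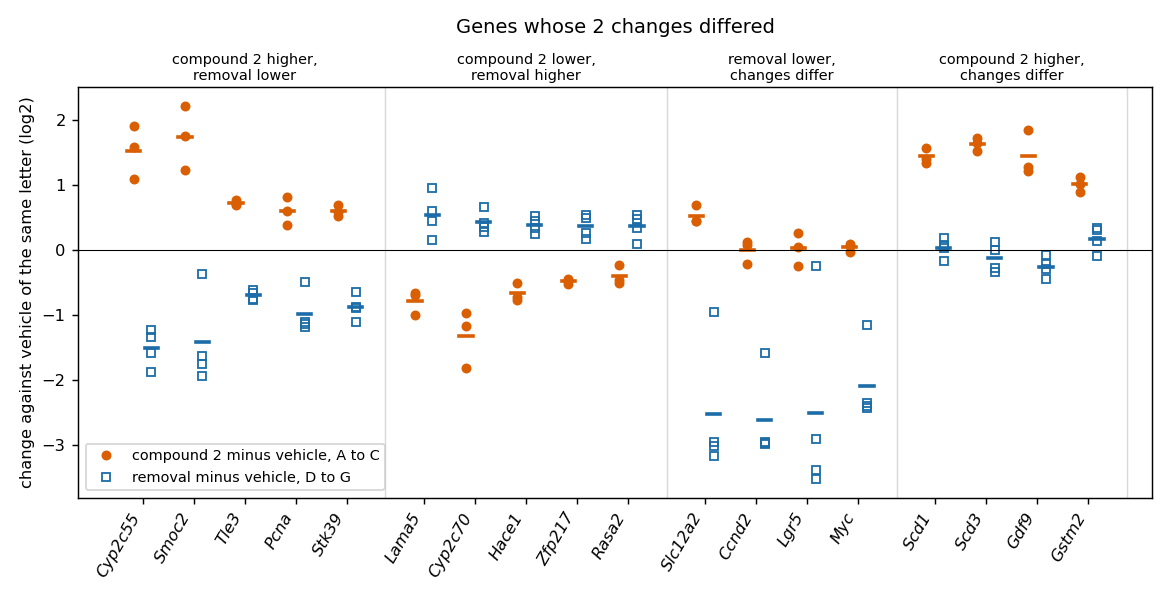
Change in each letter of genes whose changes differed by the test of the difference; circles are compound 2 minus vehicle (A, B, C), open squares removal minus vehicle (D, E, F, G), bars the means, in log2. Cyp2c55 and Smoc2 lie at opposite sides of 0, Lgr5 and Myc near 0 with compound 2 and low after removal, and in several genes letter F of removal lies nearer to 0 than the other letters.

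The test of the difference passed for 916 genes (4.28%), 641 with the compound 2 change above the removal change (3%) and 275 below (1.29%). That is 70% above, against 49.5%, 44.1% and 53.1% on the manufacturer's, the Cy3 and the submitters' values. Without vehicle F, 3331 genes passed, and without every array of letter F, 3426. Of the 916, 158 had risen (0.739%) and 81 had fallen (0.379%) with compound 2 while removal did not pass. Another 385 had fallen (1.8%) and 156 had risen (0.729%) after removal while compound 2 did not pass. In 53 both passed with opposite signs, in 15 both passed with the same sign, and in 68 neither change passed by itself. For 528 genes that passed with compound 2 only, and 3515 that passed after removal only, the difference did not pass, so these are not shown to differ. With the block 4893 genes passed the difference.

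The 158 genes that rose with compound 2 beyond removal had median changes of 0.67 and -0.05 with compound 2 and after removal. They included Saa2, an acute-phase apolipoprotein. It was not well above background in vehicles A to C, at least 3.65-fold higher with compound 2, and not well above background in either group of letters D to G. Of these 14 arrays only those of compound 2 showed it well above background. Among them Saa2 could thus meet the probe filter only through the group where it is high, so its rise is not independent of that filter. Its call was lost on the submitters' values (adjusted p 0.139). Its signal lay at 2.20, 2.75 and 1.89 with compound 2, against -0.15, 0.21 and -0.20 in vehicles A to C. Scd1, the desaturase that makes monounsaturated fatty acids, lay at 4.41, 4.28 and 4.23 with compound 2, against 3.01, 2.71 and 2.88 in vehicles A to C. After removal it lay at 2.19, 2.19, 2.18 and 2.27, against 2.16, 2.11, 2.34 and 2.09 in vehicles D to G, where the groups overlapped. The changes were 1.44 ± 0.10 and 0.03 ± 0.09, a difference of 1.41 ± 0.13 (adjusted p 7.3e-05). Its neighbour Scd3 changed by 1.63 and -0.12, although a dimmer probe gave 0.07 and 0.45. Gdf9, a growth factor of the TGF-beta family, changed by 1.45 and -0.26, and Spaca3, a lysozyme-like protein known from sperm, by 1.98 with compound 2, while both groups of letters D to G were not well above background. On the manufacturer's log ratios Spaca3 passed neither with compound 2 nor in the difference.

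The 81 genes that fell with compound 2 beyond removal had median changes of -0.52 and 0.10. Adcy4, an adenylate cyclase, changed by -1.05 and 0.45, Svop, a protein of synaptic vesicles, by -1.33 and 0.14 (its difference missed on the manufacturer's log ratios, adjusted p 0.105), D330045A20Rik (RefSeq Radx, which binds single-stranded DNA) by -1.21 and 0.20, and 2610029I01Rik (RefSeq Tstd3) by -1.02 and 0.29. Sort1, the sorting receptor sortilin, changed by -1.24 ± 0.12 and -0.30 ± 0.11 with a difference of -0.93 (adjusted p 0.00454). Its other probes gave smaller changes with compound 2, at -0.69 and -0.04.

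The 385 genes that fell after removal beyond compound 2, with median changes of 0.12 and -0.65, included well known crypt markers. Lgr5, the R-spondin receptor that marks crypt stem cells, lay at 0.69, 0.50 and 0.44 with compound 2, against 0.64, 0.23 and 0.69 in vehicles A to C. After removal it lay at 0.72, 0.79, 0.76 and 0.80, against 4.24, 4.16, 1.00 and 3.71 in vehicles D to G. The change after removal was -2.51 ± 0.46. Vehicles D, E and G were high, while vehicle F lay near the removal arrays and vehicles A to C slightly below them. The difference of 2.54 ± 0.70 passed narrowly (adjusted p 0.0457), and missed with the manufacturer's log ratios (adjusted p 0.11). On the submitters' values the change of Lgr5 after removal (-3.22, adjusted p 0.263) and its difference (adjusted p 0.722) both missed. Myc, the growth regulator and Wnt target, lay at -2.92, -2.47 and -2.89 with compound 2, against -3.01, -2.52 and -2.86 in vehicles A to C. After removal it lay at -3.25, -3.14, -3.28 and -3.37, against -0.90, -0.72, -2.12 and -0.97 in vehicles D to G. Its difference was 2.12 ± 0.33 (adjusted p 0.00194), and again vehicles A to C lay nearer to the removal arrays than to vehicles D to G.

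Slc12a2, the chloride uptake cotransporter of crypt cells, changed by 0.53 ± 0.41 and -2.52 ± 0.36, Ccnd2, a G1 cyclin, by 0.00 ± 0.40 and -2.62 ± 0.35, and 1190002H23Rik (RefSeq Rgcc, a cell cycle regulator) by -0.14 and -2.80. In all 3, vehicle F was lower than vehicles D, E and G, and letter F changed least. Ascl2, the transcription factor that keeps crypt cells stem-like, lay at 1.84, 2.73 and 2.41 with compound 2, against 3.13, 3.35 and 3.41 in vehicles A to C. After removal it lay at 0.95, 1.08, 0.79 and 1.03, against 4.49, 4.37, 3.29 and 4.44 in vehicles D to G. The groups did not overlap in either set, and its changes were -0.97 ± 0.36 (adjusted p 0.142, and 0.00887 with the block) and -3.19 ± 0.32. The difference was 2.22 ± 0.48 (adjusted p 0.0155, and 0.0698 with the manufacturer's log ratios). Genes that rose after removal beyond compound 2 included Pck1, the gluconeogenic enzyme, at -0.32 ± 0.32 with compound 2 and 1.26 ± 0.28 after removal, but on the manufacturer's log ratios removal gave 0.93 (adjusted p 0.194). Stag3, a meiotic cohesin subunit, changed by -0.63 and 0.71 with compound 2 and after removal (adjusted p 0.166 with compound 2, and 0.00702 with the block), and N4bp2l1 by -0.46 and 0.89 (adjusted p 0.0936 with compound 2, and 0.0168 with the block). Prl2c5, of the prolactin family, changed by -1.48 ± 0.59 and 1.39 ± 0.46, with no value for compound 2 B and close paralogs that its probe may share.

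The starting levels of the vehicles differed between the sets for many genes of this kind. Of the 2870 genes that fell after removal, 2042 (71.1%) had a mean level in vehicles A to C nearer to the removal arrays than to vehicles D to G, or below the removal arrays. The share was 286 of 385 (74.3%) for the genes that fell after removal alone with a passing difference, and 69 of 136 (50.7%) for the genes lower in both. Removal itself chose these genes, so the shares describe the start and test nothing. Whether compound 2 would change such genes from a high start was not tested.

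**Figure D4:**
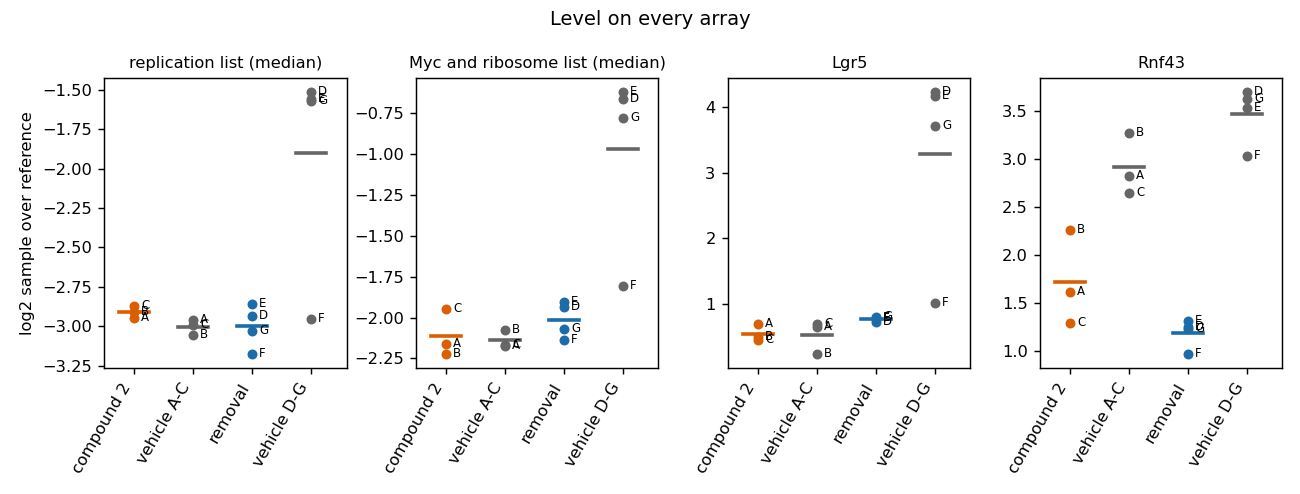
Level on every array (log2 sample over reference) for the median of the replication list, the median of the Myc and ribosome list, Lgr5 and Rnf43, with letters beside the points and bars at group means. Vehicles A to C and vehicle F lie with the removal arrays in the first 3 panels, while Rnf43 is high in all vehicles and lower in both treated groups.

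Gene lists were described by counts of members that passed and by medians. Over all genes the median change was 0.00 with compound 2, -0.01 after removal and 0.04 for the difference. Of all genes, 3.32% rose and 2.01% fell with compound 2, and 7.28% rose and 13.4% fell after removal. With the letter as a block, 17.3% of all genes passed with compound 2, 39.1% after removal and 22.9% in the difference. Of 33 measured Wnt targets and feedback genes, 1 rose and 5 fell with compound 2, while 3 rose and 13 fell after removal. Axin2, Rnf43 and Tnfrsf19 fell in both. The list's median was -0.06 with compound 2 and -0.32 after removal, and the difference passed above 0 in 6 and below 0 in 1 (12 and 2 with the block, and 10 and 1 without vehicle F). Sox9, a crypt transcription factor, changed by -0.97 with compound 2 (adjusted p 0.108, and 0.00176 with the block) and -2.18 after removal. Lef1 and Tcf7, the partners of beta-catenin, changed by -0.17 and -1.31 and by -0.23 and -0.99, and both differences passed. The difference of Tcf7 missed on the Cy3 channel alone (adjusted p 0.0756). Tcf7 was not well above background on the removal arrays, where it was at least 1.85-fold lower, and a dimmer probe gave 0.05 and -0.07. Sp5, a repressor induced by Wnt, changed by -0.49 ± 0.41 and -1.68 ± 0.35, Zfp503, a zinc finger protein, by -0.57 and -2.10 (another probe gave -1.41 and -2.30), and Znrf3, the paralog of Rnf43, by -0.30 (adjusted p 0.18, and 0.0353 with the block) and -0.53. Notum, a secreted Wnt inhibitor, changed by 0.18 and 0.22, passing after removal but not in the difference. On the manufacturer's log ratios Sp5 gave -0.22 after removal (adjusted p 0.908).

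Of 33 stem cell genes, 1 rose and 6 fell with compound 2, and none rose and 20 fell after removal, while 6 fell in both. The median was -0.03 with compound 2 and -0.71 after removal, and the difference passed above 0 in 6 (18 with the block, and 14 without vehicle F). Kcne3, the regulatory subunit that pairs with Kcnq1, changed by -0.84 ± 0.54 (adjusted p 0.468, and 0.0132 with the block) and -3.12 ± 0.47. Its difference missed the threshold (adjusted p 0.0768, and 0.000182 with the block). Pla2g5, a secreted phospholipase, changed by -1.43 ± 0.42 with compound 2 (adjusted p 0.053, and 0.00223 with the block). After removal Pla2g5 was not well above background on any array and at least 12.5-fold lower than in vehicles D to G, although a dimmer probe gave -0.19 and -0.63.

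Of 30 Myc and ribosome biogenesis genes, none passed in limma with compound 2 (1 at an unadjusted p under 0.05, 1 with the block) and 29 fell after removal, with medians of -0.07 and -0.97. Nop56, a core protein of small nucleolar RNPs, changed by -0.07 and -1.61. Of 31 replication genes, 2 rose with compound 2 (Pcna and Mcm6) and 26 fell after removal, with medians of 0.08 and -1.09. On the Cy3 channel alone the first median was -0.01. Rrm2, a ribonucleotide reductase subunit, changed by 0.25 and -2.29. Of 28 mitosis genes, none passed in limma with compound 2 (none at an unadjusted p under 0.05, and none with the block) and 18 fell after removal (28 with the block), with medians of 0.04 and -0.94. On the manufacturer's, the Cy3 and the submitters' values 8, 15 and 6 mitosis genes fell after removal. Mki67, the Ki-67 antigen, changed by 0.21 and -1.72 (adjusted p 0.0498 after removal, and over the threshold on each of the other scales). The difference passed above 0 in 9 of 30, 12 of 31 and 0 of 28 genes of these lists, and in 28, 25 and 23 with the block. At an unadjusted p under 0.05, 15 of the 28 mitosis genes had a difference. The median level of the replication list lay at -2.95, -2.91 and -2.87 with compound 2, against -2.96, -3.06 and -2.99 in vehicles A to C. After removal it lay at -2.94, -2.86, -3.18 and -3.03, against -1.51, -1.56, -2.95 and -1.57 in vehicles D to G. Vehicles A to C and vehicle F were thus as low as the removal arrays. Without vehicle F the difference passed in 28, 27 and 24 genes of the 3 lists.

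Of 32 targets of NRF2, the regulator of oxidative defence, 12 rose and none fell with compound 2, and 10 rose and 5 fell after removal, while 6 rose in both. The medians were 0.30 and 0.14. With the manufacturer's log ratios 5 rose and 1 fell with compound 2, and 10 rose and 1 fell after removal. Osgin1, an oxidative stress response gene, changed by 0.82 ± 0.16 and 1.09 ± 0.14. Nfe2l2, the gene of NRF2 itself, changed by 0.73 ± 0.13 and 0.30 ± 0.11 (adjusted p 0.0649 after removal, and 0.00544 with the block), and Gpx2, a glutathione peroxidase and Wnt target of the crypt, by 0.26 and -0.74. The fall of Gpx2 missed the threshold on each of the other scales, at -0.28 to -1.72. Of 23 glutathione transferases, 6 rose in each comparison and 4 in both, and none fell (11 rose after removal with the block). Gstm1 lay at 3.96, 3.86 and 4.07 with compound 2, against 1.92, 1.93 and 1.71 in vehicles A to C. After removal Gstm1 lay at 4.20, 4.21, 3.74 and 3.85, against 3.39, 3.33, 3.52 and 3.02 in vehicles D to G. Treated and vehicle arrays did not overlap in either set, and both treatments ended near the same level from different starts. The changes were 2.11 ± 0.15 and 0.68 ± 0.13 with a difference of 1.43 ± 0.19 (adjusted p 0.000707). Gstm4 changed by 1.84 and 0.86 (a dimmer probe gave 0.50 and 0.59), Gstm2 by 1.02 and 0.18 and Gsta3 by 0.81 and 0.71. Of 29 carbonyl, aldo-keto and aldehyde enzymes, 8 rose and 1 fell with compound 2, and 12 rose and 2 fell after removal, while 6 rose and 1 fell in both. Aldh1a1, which makes retinoic acid, changed by 0.83 and 0.56, Cbr1 by 0.71 and 0.33, and Akr1b8 by 1.38 and 0.72 (adjusted p 0.0887 after removal, and 0.00201 with the block). Of 29 cytochromes P450, 2 rose and 1 fell with compound 2, and 4 rose and 4 fell after removal (5 and 2, and 14 and 5, with the block).

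Of 27 fatty acid synthesis and desaturation genes, 5 rose and none fell with compound 2, and 3 rose and 5 fell after removal, with medians of 0.24 and -0.16. With the block the counts were 11 and 0 with compound 2, and 6 and 9 after removal. After removal 4 rose and 3 fell on the manufacturer's log ratios and on the Cy3 channel, and 5 and 3 on the submitters' values. The difference passed above 0 in 6 (13 with the block, and 1 below). Elovl6, an elongase, changed by 0.67 and 0.16, Elovl5 by 0.24 and -0.82, Fads2, a desaturase of polyunsaturated fatty acids, by 0.32 and -0.88, and all 3 differences passed. Another probe of Fads2 gave 0.24 and -0.24. Pnpla3, a lipase of lipid droplets, changed by 0.97 and 0.27 (adjusted p of the difference 0.147, and 0.0162 with the block), but its call with compound 2 was lost on each of the other scales, and another probe gave 0.45 and 0.06. Of 30 cholesterol synthesis and uptake genes, 2 rose with compound 2 and 7 fell after removal, with medians of 0.17 and -0.14 (10 rose and 10 fell with the block). The difference passed above 0 in 5 (15 with the block). Sqle, squalene epoxidase, changed by 0.18 and -0.33 (its calls were lost on each of the other scales), and Mvd, a mevalonate decarboxylase, by 0.29 and -0.19. The 7 calls after removal depended on the scale, since none of the cholesterol genes fell on the manufacturer's, the Cy3 or the submitters' values.

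**Figure D5:**
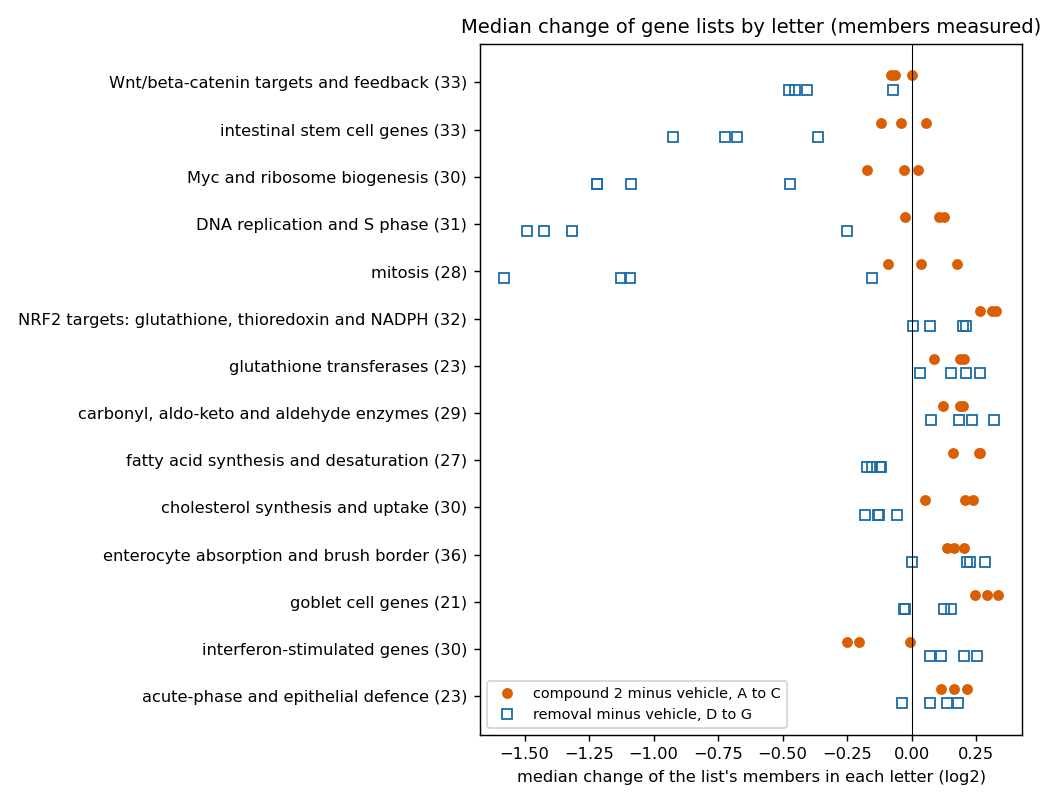
Median change of the measured members of 14 gene lists in each letter; circles are compound 2 minus vehicle (A, B, C), open squares removal minus vehicle (D, E, F, G), in log2, with the number of measured members in brackets. The Myc, replication and mitosis lists lie near 0 with compound 2 and between -1.58 and -0.15 after removal, and fatty acid and cholesterol lists lie above 0 with compound 2 and below 0 after removal.

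Of 36 enterocyte genes, 2 rose and 1 fell with compound 2 (10 and 1 with the block), and 12 rose and 1 fell after removal, with medians of 0.17 and 0.18. Krt20, a keratin of villus cells, changed by 0.09 and 0.70, and Slc6a19, an amino acid transporter, by 0.21 and 0.76; neither difference passed (adjusted p 0.07 for Krt20, and 0.0139 with the block). Of 21 goblet cell genes, 3 rose with compound 2, and 1 rose and 1 fell after removal (8, and 5 and 2, with the block). Spdef, the transcription factor of goblet cells, changed by 0.61 and 0.15, and Foxa3 by 0.33 and -0.74 with a passing difference. The rise of Spdef (adjusted p 0.0446) and the difference of Foxa3 were lost on the manufacturer's log ratios (adjusted p 0.0812 and 0.0752). Of 16 Paneth cell genes 1 rose with compound 2, and 1 rose and 1 fell after removal (2 and 1, and 1 and 8, with the block). In limma none of 29 enteroendocrine genes passed with compound 2 (2 at an unadjusted p under 0.05) and 1 after removal (4 and 8 with the block), and of 21 tuft cell genes 1 and 0 passed (7 in each with the block). Of 30 interferon-stimulated genes, 1 fell with compound 2 (13 with the block), and 4 rose and 1 fell after removal (10 and 2). Their medians were -0.15 and 0.14, and the difference passed below 0 in 2 (14 with the block). Ddx58, a sensor of viral RNA, changed by -0.11 and 0.62 (another probe gave -0.12 and 0.18). Of 23 acute-phase and epithelial defence genes, 4 rose with compound 2 and 2 after removal, with none in both. With the block 8 and 6 rose, 3 of them in both, and without vehicle F 2 rose in both. Saa1 changed by 1.11 and 0.20 and Ccl28, a mucosal chemokine, by 1.46 and -0.09, and both differences passed, although Ccl28 missed on the manufacturer's log ratios.

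With compound 2 the numbers that passed were 0 of 30 Mediator genes, 0 of 22 p53 targets, 0 of 30 stress response genes, 1 of 28 immediate early genes, 1 of 28 hypoxia and glycolysis genes and 1 of 24 fetal-like and YAP target genes. With the block they were 3, 4, 8, 10, 5 and 4, and at an unadjusted p under 0.05 they were 3, 3, 6, 7, 5 and 2. After removal the numbers that passed were 6, 8, 12, 6, 0 and 1, and with the block 10, 12, 15, 10, 7 and 4. Of marker lists of other cells, 1 of 10 fibroblast, 0 of 15 leukocyte and 1 of 8 endothelial genes passed with compound 2, and 0, 1 and 1 after removal. Of the 18 epithelial markers, 3 rose with compound 2, and 2 rose and 3 fell after removal. Krt18, a keratin of simple epithelia, changed by 0.36 and -0.38, and lost its calls on each of the other scales.

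Slides were shared within the sets only in part. The change of Rnf43 within the slide of letters A and B was -1.11, and on the slide of letter C it was -1.35. On the slide that held removal D, E and F with vehicle E it was -2.36, and on the slide that held removal G with vehicles D and F it was -2.14. Cyp2c55 gave 1.50, 1.58, -1.55 and -1.70 in the same order, Lgr5 gave 0.16, -0.24, -3.41 and -1.82, and Scd1 gave 1.49, 1.35, 0.07 and 0.02. The slide of letter C holds only that letter, and named genes were chosen to have 1 sign over the letters of a change that passed, so these values describe size only.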

How the data were processed

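RNA of 21 organoid samples (Cy3) was hybridised against a universal mouse reference RNA (Cy5) on 2-colour Agilent arrays without a dye swap. Per the file headers, spot intensities and log10 ratios (red over green) were extracted with Agilent Feature Extraction 10.7.3.1, with probe coordinates on mm9. The deposited series matrix holds log2 values, with the tool and steps behind them not given in the sources used here. Its columns had medians of -0.00381 to 0.104, correlated at 0.92 to 0.947 with the log2 ratios computed here and had slopes of 1.06 to 1.08, so its direction matched while its exact scale and centring stay unknown.

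The deposited mean and background intensities were corrected with normexp (offset 50) and loess within arrays in limma 3.58.1 (R 4.3.3) and turned to log2 sample over reference. Control spots (3671 of 62976) and 157 non-uniform spots were left out, and no spot was saturated. Of 55681 probes, the 29648 whose Cy3 signal stood well above background on 3 or more arrays entered the fit, and the brightest probe stood for a gene, which gave 21387 genes, 13813 of them matched to RefSeq by accession. Values of another probe are given for some genes and not for all. One limma fit over all 21 arrays had group and set (letters A to C or D to G) as terms, with contrasts for both changes and for their difference, two-sided, with Benjamini-Hochberg adjustment over all genes. The fit was tested on simulated data with known changes.

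The letter as a block was an alternative. All 7 same-letter pairs of treated and vehicle arrays deviated together (r 0.207 to 0.749), so the letters pair the samples, as their labels' shared letters imply. The median was -0.179 for pairs of unlike letters within a set, compounds 6 and 9 included. Values were centred within each group, so positive same-letter pairs push the other pairs below 0, and their median is no separate baseline. The fit behind the calls did not use this pairing. With the block 3708 genes passed with compound 2, 8359 after removal and 4893 in the difference. A gene that missed without the block is thus not shown to be unchanged. The members, gene lists and tests were chosen with earlier results of these data known. Named genes are protein-coding, matched to RefSeq and of the same sign in every letter of each change that passed. They were taken by size within 8 classes of calls, together with 25 genes set by name and up to 4 members of each list with the largest change that passed. Other alternatives were 3 other scales of the values (the manufacturer's log ratio, Cy3 alone with quantile normalization, the series matrix), the 14 arrays alone, no set term, the slide as a block, an offset of 16, other probe filters, the mean of all probes, and leaving out arrays. Compounds 6 and 9 entered the estimate of the spread, the probe filter and the choice of the brightest probe, and none of the contrasts. Figures were drawn with matplotlib 3.10.9.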

Additional observations from a re-analysis of the deposited data

Results flagged for a closer look

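In groups of 4 arrays, a value whose gap to the nearest of the others exceeds 0.829 of the group's range stands apart by Dixon's test. Of 218 groups of 4 that were tested, 33 held such a value, and chance gives about 1 in 20 for a group taken by itself. These groups reuse the same arrays, and many hold genes picked by their changes, so the 33 were not tested against that rate. Most of the 33 values were vehicle F against vehicles D, E and G. Among genes lower after removal, vehicle F lay low at 1.00 for Lgr5 (others 3.71 to 4.24), 3.29 for Ascl2, 5.27 for Kcnq1, 2.25 for Lect2, -0.73 for Ccnd2 and -0.48 for Slc12a2. It also lay low at -0.87 for Smoc2, -0.37 for Stk39, 0.30 for Sox9, 0.18 for Pla2g5, -1.81 for Lef1, -0.51 for 1190002H23Rik and 1.36 for Fads2. Growth genes were low there too, with Mki67 at -4.93 (others -2.06 to -1.82), Rrm2 at -4.95 and Nop56 at -2.95. The list medians of vehicle F were -1.81 for Myc and ribosome biogenesis, -2.95 for replication and -3.63 for mitosis. Vehicle F lay high at 1.74 for Osgin1 (others 1.00 to 1.01), 2.71 for Nfe2l2, -0.62 for Akr1b8, -2.50 for Lama5, 0.22 for Hace1 and 0.18 for Rasa2, and at -2.32 for the median of the fetal-like and YAP list.

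A few other arrays stood apart. Removal F lay high for Adcy4 (1.86) and Mfsd7b (4.01) and low for Pnpla3 (0.81). Removal G lay high for Scd1, at 2.27 against 2.18 to 2.19 in the others, and vehicle G low for Sqle, at 0.71. Removal E lay high for Znrf3 (0.12) and for the median of the Wnt list (0.051). Removal F was also the lowest removal array for Mki67, at -5.57 against -3.47, -3.63 and -4.90 in letters D, E and G. For Lgr5 it was not, at 0.76 against 0.72, 0.79 and 0.80. Whether vehicle F, or letter F as a whole, differed by culture, handling or hybridisation was not tested.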

How the results depend on the processing

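Counts are given as genes changed by compound 2, by removal, higher in both, lower in both, opposite, and with differing changes. They were 1138, 4427, 182, 136, 53 and 916. With the letter as a replicate block they were 3708, 8359, 700, 812, 334 and 4893. Without a set term, so that each group met all 7 vehicles, they were 3633, 2095, 111, 189, 106 and 7253. With the 14 arrays alone the opposite and differing genes numbered 35 and 462, and with the manufacturer's log ratios the differing genes numbered 596. With a 2-fold change required as well, 112 and 316 genes passed with compound 2 and after removal. Leaving out 1 array gave 546 to 1575, 2416 to 7384, 106 to 338, 59 to 324, 24 to 118 and 372 to 3331. The highest of each came without vehicle F, and the lowest without compound 2 A or C or, for removal, vehicle E. Leaving out every array of a letter gave 219 to 2303, 1456 to 6827, 50 to 427, 22 to 513, 6 to 172 and 143 to 3426. The causes were not tested.

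Of 7746 results of named genes under the alternatives, 18 turned sign with a pass before or after the turn. They are listed here, and another 87 turned sign without a pass. Without a set term the changes turned to 0.15 and -0.22 for Hace1 with compound 2 and after removal, -0.061 for Stk39 with compound 2 and 0.34 for Sp5 after removal. The differences turned to 2.34 for Asah2, -1.08 for Cbr3, -0.11 for Ccl28, 0.60 for D330045A20Rik, 0.54 for Ddx58, -0.034 for Gstm1, 0.37 for Hace1, -0.22 for Lgr5 and -3.52 for Sp5. Ugt2b5 gave -0.14 and -0.56 with the manufacturer's log ratios and -0.12 and -0.55 with the submitters' values, and Kcne3 gave 1.97 after removal with the submitters' values. Tcf7, Axin2, Tnfrsf19, Pla2g5 and Saa2 were not well above background in 1 group, which limits their fold changes to bounds.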
